A study of Mus musculus with 26 samples.

Results

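Messenger RNA was compared between C2C12 cells transfected with siSMYD3#1, a small interfering RNA designed against Smyd3, and C2C12 cells transfected with the control siRNA siCtrl, both collected after 24 h of differentiation. The comparison held 6 of the 26 RNA-Seq libraries of the study, 3 libraries labelled siSMYD3#1 and 3 labelled siCtrl, chosen by their labelled treatment and time point. C2C12 is an established mouse myoblast line that carries no other alteration in these groups. Cells received the siRNA as growing myoblasts 24 h before differentiation and, by the study's methods, again when differentiation was induced. They were collected at that point, at confluence (0 h), or after 24 h in differentiation medium, and the same 2 siRNAs at 0 h (6 libraries) and a further Smyd3 siRNA, siSMYD3#2, at 24 h (3 libraries) were used as comparators. The remaining libraries entered the same fit (siSMYD3#2 at 0 h) or were not used here (overexpression). In the siCtrl and siSMYD3#1 groups replicate 1 was extracted with TRIzol and replicates 2 and 3 with NucleoSpin columns, whereas in siSMYD3#2 at 24 h replicate 3 was the TRIzol library. The study's sample table gives TRIzol and NucleoSpin libraries different p numbers, which read as cell passages, so extraction method and passage cannot be told apart.

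SMYD3 is a lysine methyltransferase of the SET and MYND domain family that acts on histones and on signalling kinases. Myoblasts deprived of growth factors leave the cell cycle, switch on myogenin and other myogenic transcription factors, fuse, and build sarcomeres. During the same period they remodel the extracellular matrix, the network of collagens, proteoglycans and glycoproteins that cells bind through integrins, and they change the ligands and receptors of the TGF-beta, Wnt, Notch and IGF pathways as well as their energy metabolism.

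An siRNA acts through its antisense (guide) strand, which pairs along its whole length with the intended mRNA and, through its bases 2 to 8 (the seed), with short complementary sites in the 3′ untranslated regions of other mRNAs. The guide strands of both siRNAs are shown because the contrast is one between these molecules, 5′ to 3′ with the seed in capitals.
siSMYD3#1 guide: gUUGGGGUcacagcuguga
siCtrl guide: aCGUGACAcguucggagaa
The sense strand of siSMYD3#1 matched 3 of the 7 annotated Smyd3 transcripts, and no other gene's transcript, with 0 mismatches. The site falls within coding sequence, in exon 7 of Smyd3-204, at chr1:179092935-179092953 of GRCm38 on the minus strand. That of siCtrl matched 0 annotated mouse transcripts.

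Smyd3 itself (ENSMUSG00000055067), the mRNA the siRNA was designed against, stood at 19.3, 15.2 and 15.1 CPM (counts scaled to a library of 1e+06 reads, with library sizes adjusted by TMM) in siSMYD3#1 replicates 1, 2 and 3, and at 20.7, 17.8 and 19.9 CPM in the siCtrl replicates. The siSMYD3#1 library extracted with TRIzol lay among the siCtrl values, so the groups overlapped. Within each extraction method the siSMYD3#1 values were lower, with log2 differences of -0.1 for TRIzol (1 library against 1) and -0.31 for NucleoSpin (2 against 2). The fitted log2 fold change of -0.24 (standard error 0.16, edgeR adjusted p = 0.414) was not past the threshold, and its 95% interval ran from -0.57 to 0.10, that is, between a fall of 32.8% and a rise of 7.18%. Every direction given below is therefore that of the libraries labelled siSMYD3#1, in which a fall of the targeted mRNA was not established. Libraries labelled siSMYD3#2 held less Smyd3 mRNA than those labelled siSMYD3#1 (log2 difference 1.27, standard error 0.17, edgeR adjusted p = 0.000176). The mRNA level does not report on the protein.

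Between 14315193 and 32165613 reads per library were counted on genes in these 6 libraries, so that 3 counts, the level treated as the floor, correspond to 0.092 to 0.212 CPM. Defining genes of myoblasts and early myotubes (Myod1, Myf5, Des, Cdh15, Vim, Myog, Ckm and Myh3) summed to 6000 to 7520 CPM in siCtrl and 5760 to 6240 CPM in siSMYD3#1. Vim alone made up 5060 to 5290 and 4240 to 5340 CPM of these sums, and Myog, Ckm and Myh3 were lowered. Of the markers listed for other cell types, 6 of 9 adipocyte, 4 of 8 endothelial, 5 of 8 macrophage, 3 of 9 neuronal and glial and 3 of 11 tendon, cartilage and bone genes had 3 counts or fewer in all 6 libraries. The summed smooth muscle and myofibroblast markers ranged from 1970 to 4100 CPM in siCtrl and from 1680 to 5090 CPM in siSMYD3#1, and none of the 7 tested passed the threshold. Over all other cell types 1 marker passed, the neuronal gene Map2, at 21.7 to 39.9 CPM in siCtrl, which fell by 1.31 (adjusted p = 0.000138).

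At 24 h, 926 of the 15820 genes tested (5.85%) passed an adjusted p-value under 0.01, of which 461 were raised (2.91%) and 465 lowered (2.94%) in siSMYD3#1. The level of 301 of them at least doubled or halved, 101 upward and 200 downward, and the median log2 fold change of all genes tested was -0.001. The 6 libraries of the contrast fell into separate ranges for 317 of the raised and 305 of the lowered genes. The same libraries were used to call these genes, and the share of separate ranges over all genes tested is not given here. Without the extraction method in the model 102 genes passed, all of them among the 926. Leaving out siCtrl replicate 2, siCtrl replicate 3, siSMYD3#1 replicate 2 or siSMYD3#1 replicate 3 gave 498, 474, 526 and 572 genes. Within extraction methods, 460 of the 461 raised and 462 of the 465 lowered genes moved the same way between the single TRIzol libraries. All 926 did between the NucleoSpin libraries (2 against 2). These genes were called with the same libraries, so their agreement in sign was largely set by that choice. Over all 15820 genes tested, the TRIzol and NucleoSpin differences correlated at Pearson's r = 0.439 and Spearman's rho = 0.315.

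**Figure D1:**
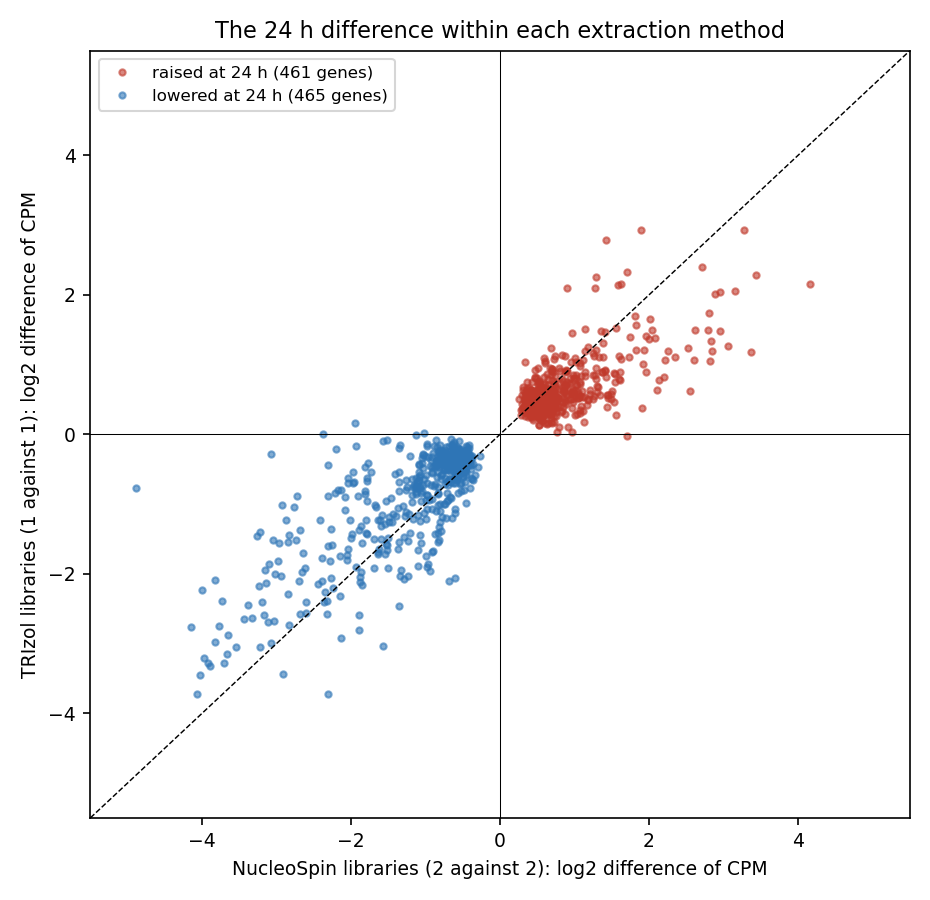
Each point is 1 of the 926 genes past the threshold at 24 h (461 raised in red, 465 lowered in blue). The x axis gives the log2 difference between siSMYD3#1 and siCtrl within the NucleoSpin libraries and the y axis that between the TRIzol libraries, on CPM plus 0.1, and the dashed line marks equal values. Nearly all points lie at lower left or upper right, where both differences have the same sign, and the genes were chosen with both sets of libraries.

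The extracellular matrix was the function with the most raised genes among the lists examined. Of 138 matrix and adhesion genes tested, 45 were raised (32.6%) and 7 lowered (5.07%), against 2.91% and 2.94% of all genes, and their median log2 fold change was 0.43. Within the NucleoSpin libraries alone 64 were raised and 16 lowered, and leaving out single libraries gave 34 to 48 raised and 4 to 8 lowered. Without the extraction method in the model 7 were raised and 1 lowered.

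Collagens carried this most evenly: 8 of 23 were raised, none lowered, and the other 15 also had fold changes above 0 (range 0.06 to 2.42, median 0.70). Col1a1, which encodes the alpha-1 chain of type I collagen (chromosome 11, ENSMUSG00000001506), stood at 658, 1749 and 1394 CPM in siSMYD3#1 and at 280, 304 and 242 CPM in siCtrl. All siSMYD3#1 libraries lay above all siCtrl libraries, with the TRIzol library lowest of the siSMYD3#1 values, and the log2 fold change was 2.1 (standard error 0.28, edgeR adjusted p = 0.00024). Its partner chain Col1a2 measured 2792, 4435 and 4138 CPM against 1733, 1873 and 1599 CPM (log2 fold change 1.09, adjusted p = 5.4e-06). Col3a1, the type III chain, and Col5a1, which helps to set fibril diameter, rose by 0.99 and 1.18 on the log2 scale (adjusted p = 1.24e-05 and 5.4e-06). Of 19 enzymes and cofactors that process and crosslink collagen, 6 were raised, 0 lowered and 13 not past the threshold. Lox, the lysyl oxidase that crosslinks collagen and elastin, measured 1304, 632 and 642 CPM against 582, 267 and 268 CPM, higher in TRIzol libraries of both groups and separate within each extraction method (log2 fold change 1.22, adjusted p = 1.09e-05). The procollagen N-proteinase Adamts2, the oxidase Loxl4 and the procollagen C-proteinase Bmp1 followed with 1.09, 0.93 and 0.68.

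Proteins that decorate these fibrils showed some larger rises. Fmod (fibromodulin, ENSMUSG00000041559), a small leucine-rich proteoglycan that binds collagen, measured 266, 151 and 194 CPM in siSMYD3#1 and 59.6, 9.82 and 9.21 CPM in siCtrl, and Prelp, of the same family, 47.4, 46.9 and 62.5 CPM against 20.9, 5.43 and 4.90 CPM. Both had separate groups, with the TRIzol library the highest of the siCtrl values. Their log2 fold changes were 3.29 (standard error 0.58, adjusted p = 0.00297) and 2.44 (standard error 0.41, adjusted p = 0.00155). Fmod lost its call without siCtrl replicate 2, siCtrl replicate 3 or siSMYD3#1 replicate 3 (adjusted p 0.013 to 0.0234) and Prelp without siCtrl replicate 2 or 3 (0.0107 to 0.0128). Bgn (biglycan) measured 2478, 1521 and 1916 CPM against 1480, 806 and 813 CPM and rose by 0.97 (adjusted p = 7.4e-06). The family did not move as one, since 3 of its 9 tested members were raised, 0 lowered, and the decorin gene Dcn had a log2 fold change of -0.67 (adjusted p = 0.0226).

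Of 29 matrix glycoproteins tested, 12 were raised and 1 was lowered. Postn (periostin), a secreted adhesion protein of remodelling connective tissue, measured 144, 1232 and 1502 CPM in siSMYD3#1 and 29.6, 123 and 130 CPM in siCtrl. Its level was several-fold lower in TRIzol libraries of both groups, and within each extraction method the siSMYD3#1 values were higher, by 2.28 on the log2 scale with TRIzol and by 3.43 with NucleoSpin (fitted log2 fold change 3.08, standard error 0.34, adjusted p = 7.33e-05). Tgfbi, a collagen-binding protein induced by TGF-beta, measured 6.71, 8.45 and 9.06 CPM against 2.32, 1.18 and 1.18 CPM (2.53, adjusted p = 0.000745). Fn1 (fibronectin) overlapped between the groups and was lowest in the TRIzol library of each, with 10179, 19738 and 19591 CPM against 5303, 12211 and 12035 CPM, and rose by 0.77 (adjusted p = 0.0029). That call was lost without siCtrl replicate 1, siSMYD3#1 replicate 2 or siSMYD3#1 replicate 3 (adjusted p 0.0144 to 0.0159). The tenascin gene Tnc had a fold change of 0.73 (adjusted p = 0.0148).

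Laminins, the scaffold of basement membranes, split in direction. Lamb3, a chain of epithelial laminin, measured 51.8, 46.8 and 60.4 CPM against 22.6, 11.5 and 10.6 CPM and rose by 1.88 (adjusted p = 1.24e-05). Lama2, the chain of the laminin that surrounds muscle fibres, measured 17.0, 16.6 and 21 CPM against 47.2, 45.5 and 46.4 CPM and fell by 1.35 (adjusted p = 6.27e-06). These were the only calls among the 8 laminin genes tested, and the groups were separate for both.

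Of 25 integrins, cadherins and proteoglycan receptors, with which cells hold the matrix, 9 were raised, 2 lowered and 14 not past the threshold. Itgb1, the beta-1 subunit shared by most collagen and fibronectin receptors, measured 1356, 1465 and 1619 CPM against 885, 956 and 988 CPM, and Itgb3, the beta-3 subunit, 174, 113 and 103 CPM against 97.7, 65.8 and 63.9 CPM. They rose by 0.65 and 0.77 (adjusted p = 3.5e-05 and 9.46e-05). Itga10, a collagen-binding alpha subunit, rose by 2.12 (adjusted p = 0.000116), but 1739 of its exon bases are shared with another gene on the same strand. Itga3, a laminin-binding subunit, rose by 0.54 (adjusted p = 0.000745), and Itgb8, whose integrin releases latent TGF-beta, by 1.6 (adjusted p = 0.00381). The Itgb8 call was lost without siCtrl replicate 2 or 3 or siSMYD3#1 replicate 2 or 3 (0.0173 to 0.0304). Among proteases and their inhibitors, 6 of 25 were raised and 3 lowered. Serpine2, an inhibitor of thrombin and plasminogen activators, measured 56.0, 90.6 and 95.1 CPM against 36.1, 46.3 and 46.0 CPM (0.91, adjusted p = 0.000941).

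**Figure D2:**
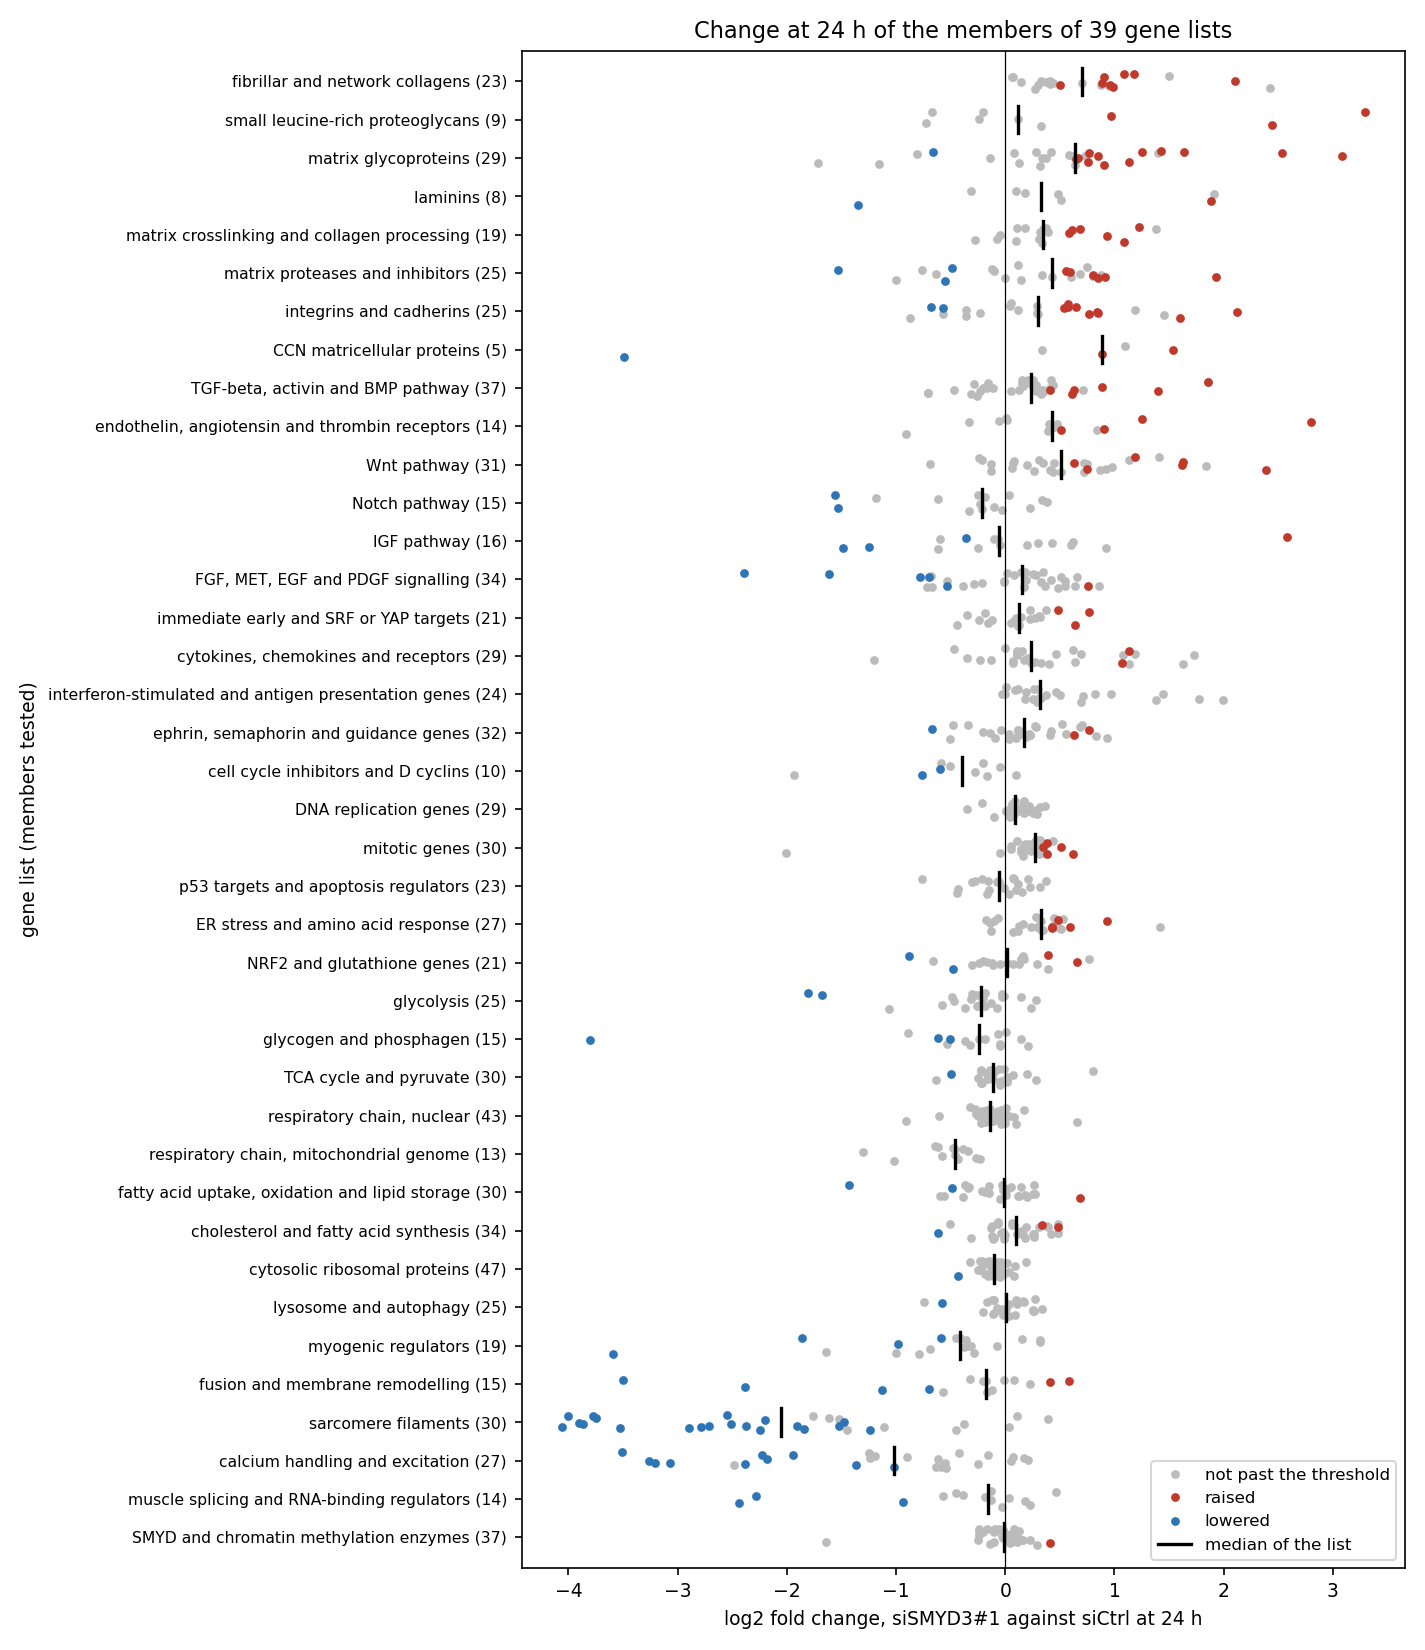
Log2 fold changes at 24 h (x axis) of the members of 39 gene lists (y axis, with the number tested), as points coloured by whether they were raised (red), lowered (blue) or not past the threshold (grey), with the list median as a black bar. Collagens lie wholly to the right of 0 (median 0.70), mitochondrially encoded genes wholly to the left with none past the threshold (median -0.46), and sarcomere filaments far to the left (median -2.06).

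In the signalling lists, 27 of 258 genes tested were raised (10.5%) and 12 lowered (4.65%), against 2.91% and 2.94% of all genes. The median log2 fold change of the 258 genes was 0.23. The NucleoSpin libraries alone gave 57 and 21, the model without extraction method 5 and 2, and fits without 1 library 18 to 36 raised and 7 to 10 lowered, with the fewest (18 and 7) without siCtrl replicate 3. The endothelin, angiotensin and thrombin system is given first. Edn1 (endothelin-1), a peptide ligand of G protein-coupled receptors, measured 14.0, 31 and 31.3 CPM in siSMYD3#1 and 3.31, 4.56 and 2.55 CPM in siCtrl. The groups were separate and the log2 fold change was 2.80 (standard error 0.30, edgeR adjusted p = 1.31e-05). Ace, the peptidase that makes angiotensin II, measured 13.8, 8.85 and 11.4 CPM against 6.58, 1.36 and 1.31 CPM (2.11, adjusted p = 0.00601). It lost its call without siCtrl replicate 2 or 3 or siSMYD3#1 replicate 2 or 3 (0.021 to 0.0444). F2r, the thrombin receptor PAR1, measured 238, 157 and 179 CPM against 110, 69.0 and 65.0 CPM and rose by 1.25 (adjusted p = 3.63e-07). The endothelin, angiotensin and thrombin list does not hold Ace, which was named as 1 of the 10 largest rises. Of the 14 genes of that list that were tested, 4 were raised and 0 lowered.

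The CCN proteins, matrix-associated modulators of growth factor signals, moved in opposite directions. Ccn3, also called NOV, fell from 3.31, 24.0 and 25.9 CPM in siCtrl to 0.552, 1.96 and 1.63 CPM in siSMYD3#1 (log2 fold change -3.49, standard error 0.25, adjusted p = 1.41e-07). Ccn2 (connective tissue growth factor) measured 42.2, 85.5 and 98.3 CPM against 8.80, 36.3 and 38.7 CPM and rose by 1.54 (adjusted p = 8.21e-05), with 665 of its exon bases shared with a gene on the opposite strand. Ccn1 had separate groups and a fold change of 1.10 that did not pass the test (adjusted p = 0.198). Of the 5 members tested, 2 were raised and 1 lowered.

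In the TGF-beta, activin and BMP pathway, 6 of 37 genes were raised and 0 lowered. Inhbb and Inhba, the beta subunits that form activins, measured 105, 52.8 and 68.4 CPM against 40.8, 15.3 and 14.6 CPM, and 163, 145 and 162 CPM against 58.5, 57.9 and 61.2 CPM. Their log2 fold changes were 1.86 (adjusted p = 0.000503) and 1.40 (adjusted p = 0.008). Inhba lost its call without any single library other than siSMYD3#1 replicate 1 (0.0139 to 0.0353) and when replicate number was a block (0.0124). The activin-binding glycoprotein Fstl1 rose by 0.63 and Ltbp1, which stores latent TGF-beta in the matrix, by 0.61 (adjusted p = 0.000399 and 0.000924). The ligands themselves did not pass the test at 24 h, with log2 fold changes of 0.33 for Tgfb1, 0.41 for Tgfb2 and -0.16 for Tgfb3 (adjusted p = 0.0692, 0.207 and 0.224).

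Wnt signalling genes were raised in 6 of 31 cases and lowered in 0, with a median of 0.51. Wnt6, a secreted ligand, measured 8.89, 23.7 and 22.7 CPM against 3.80, 7.98 and 5.22 CPM and rose by 1.62 (standard error 0.17, adjusted p = 7.55e-06). Tcf7, a transcription factor that works with beta-catenin, measured 44.0, 66.1 and 63.9 CPM against 29.4, 24.2 and 22 CPM (1.19, adjusted p = 5.29e-05). Both had separate groups. The ligand Wnt10a and the receptor Fzd2 rose by 0.75 and 0.63 (adjusted p = 0.000321 and 5.24e-05).

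Of 15 Notch pathway genes, 0 were raised, 2 were lowered and 13 did not pass, with a median of -0.21. Hey1, a transcriptional repressor induced by Notch, measured 5.49, 7.51 and 7 CPM against 21.4, 16.5 and 20.4 CPM and fell by 1.56 (adjusted p = 5.4e-06). The ligand Dll1 measured 11.4, 10.9 and 7.71 CPM against 34.3, 25.9 and 27.6 CPM and fell by 1.53 (adjusted p = 0.000292), with 867 exon bases shared with a gene on the opposite strand. The receptor Notch1 had a fold change of -0.62 (adjusted p = 0.0457).

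The IGF list held 2 binding proteins that moved apart. Igfbp4, which sequesters IGFs, measured 28.7, 48.3 and 92.0 CPM against 10.2, 10.2 and 7.18 CPM and rose by 2.58 (adjusted p = 0.000422), a call lost when only the 2 groups compared were fitted (0.0191). Igfbp3, the main IGF carrier of serum, measured 18.6, 12.3 and 10.2 CPM against 32.8, 39.4 and 39.8 CPM and fell by 1.49 (adjusted p = 0.000237). In all, 1 of 16 genes of this list was raised and 3 were lowered, and neither Igf1 (0.92, adjusted p = 0.0503) nor its receptor gene Igf1r (0.43, adjusted p = 0.0184) passed. Of 34 FGF, MET, EGF and PDGF genes, 1 was raised and 5 lowered, among them the neuregulin receptor gene Erbb3, at 0.582, 3.99 and 4.03 CPM against 5.07, 16.3 and 19.9 CPM (-2.39, adjusted p = 4.67e-05). Single receptors of other families rose, with log2 fold changes of 1.13 for Osmr, the oncostatin M receptor, and 0.64 for Axl, the GAS6 receptor (adjusted p = 6.55e-05 and 1.5e-05). Guidance genes gave 2 rises and 1 fall among 32: the netrin gene Ntn1 and the netrin receptor gene Unc5b rose by 0.77 and 0.63, and the semaphorin gene Sema3e fell by 0.67 (adjusted p = 0.000138, 4.86e-05 and 0.000101).

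Genes induced by interferon were counted separately. None of 24 tested passed edgeR's threshold (7 had an unadjusted p under 0.05 and DESeq2 called 2), while 23 had fold changes above 0 (median 0.32). The antiviral genes Ifit1, Ifit2 and Ifit3 had log2 fold changes of 1.38, 0.46 and 1.77 (adjusted p = 0.0101, 0.0164 and 0.0234).

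**Figure D3:**
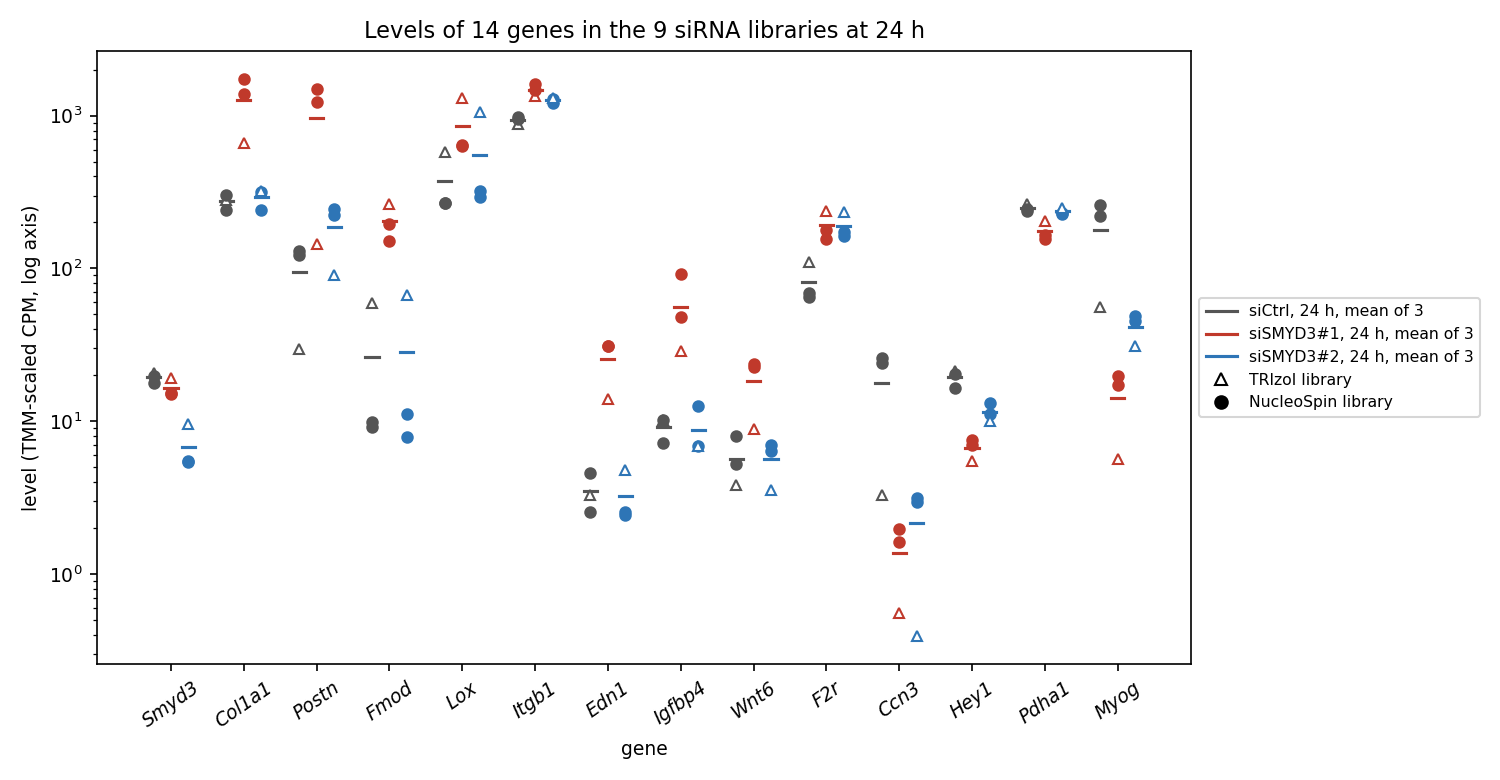
Levels in TMM-scaled CPM (y axis, log scale) of 14 named genes (x axis) in each of the 9 libraries of siCtrl (grey), siSMYD3#1 (red) and siSMYD3#2 (blue) at 24 h, with TRIzol libraries as open triangles, NucleoSpin libraries as filled circles and group means as bars. For Smyd3 the siSMYD3#1 values reach 19.3 CPM, within the siCtrl values, while for Edn1 and Col1a1 every siSMYD3#1 library lies above every siCtrl library.

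Of 262 genes tested in the 9 metabolism lists, 3 were raised (1.15%) and 11 lowered (4.20%), against 2.91% and 2.94% of all genes. These lists include cytosolic ribosomal proteins (47 genes, 41 below 0) and lysosome and autophagy genes (25 genes, 12 below 0), with 1 gene lowered in each. Over the 262 genes the median was -0.10 on the log2 scale, and 188 had values below 0, as did 7918 of all 15820 genes. Within the NucleoSpin libraries 3 were raised and 36 lowered, so the lowered count depends on the libraries, and the model without extraction method lowered 1. Fits without 1 library lowered 3 to 12, with 4 and 3 without siCtrl replicates 2 and 3 and 5 without siSMYD3#1 replicate 2 or 3. Among those lowered was Ckm, the muscle creatine kinase that buffers ATP with phosphocreatine, from 19, 41.0 and 48.8 CPM in siCtrl to 1.96, 2.90 and 2.62 CPM in siSMYD3#1 (log2 fold change -3.80, standard error 0.25, adjusted p = 7.05e-08). It was 1 of 3 lowered among 15 genes of glycogen and phosphagen metabolism. Pdha1, the E1 alpha subunit of pyruvate dehydrogenase, measured 206, 157 and 166 CPM against 263, 238 and 245 CPM and fell by 0.50 (adjusted p = 0.000263), the only call among 30 pyruvate and TCA cycle genes.

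Glycolysis genes had 0 raised and 2 lowered of 25, with 22 below 0 and a median of -0.23. The neuronal-type glucose transporter gene Slc2a3 measured 0.307, 1.67 and 1.42 CPM against 0.493, 5.13 and 7.84 CPM (-1.81, adjusted p = 0.00716). Its groups overlapped, and its call was lost without any single library other than siCtrl replicate 1 (0.0191 to 0.0684) and when replicate number was a block (0.0114). None of 43 nuclear respiratory chain genes passed in edgeR or DESeq2, and 15 had an unadjusted p under 0.05. All 13 protein genes of the mitochondrial genome had fold changes below 0 (range -1.30 to -0.23, median -0.46), of which none passed in edgeR or DESeq2 and 1 had an unadjusted p under 0.05. The share of all counts that fell on the mitochondrial genome was 1.38%, 1.6% and 2.08% in siSMYD3#1 and 1.84%, 2.00% and 2.78% in siCtrl, with overlapping groups. Fatty acid uptake, oxidation and lipid storage had 1 raised and 2 lowered of 30 genes. The raised one, the fatty acid binding protein gene Fabp5, measured 78.0, 72.2 and 66.7 CPM against 40.3, 47.6 and 49.4 CPM and rose by 0.68 (adjusted p = 0.000133). Cholesterol and fatty acid synthesis had 2 raised and 1 lowered of 34 genes. The lowered one, the fatty acid elongase gene Elovl6, fell by 0.62 (adjusted p = 0.00362). Elovl6 lost its call without siCtrl replicate 2 or 3 or siSMYD3#1 replicate 2 or 3 (0.0118 to 0.0303).

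Of 69 proliferation genes tested, 5 were raised (7.25%) and 2 lowered (2.90%), against 2.91% and 2.94% of all genes. Of 29 DNA replication genes, 0 passed in edgeR, 4 had an unadjusted p under 0.05 and DESeq2 called 0. Among 30 mitotic genes 5 were raised, 28 had fold changes above 0, and Aurka, a kinase of the spindle poles, measured 80.8, 74.4 and 62.6 CPM against 45.9, 46.9 and 49.6 CPM (0.62, adjusted p = 0.00104). The retinoblastoma gene Rb1 and the D cyclin gene Ccnd3, which rise in differentiating myoblasts, measured 31, 38.9 and 46.4 CPM against 55.9, 64.1 and 75.6 CPM, and 147, 172 and 144 CPM against 189, 247 and 269 CPM. They fell by 0.76 and 0.60 (adjusted p = 0.00108 and 0.000663), and Rb1 lost its call without siSMYD3#1 replicate 2 (0.0108). The cell cycle inhibitor genes Cdkn1a and Cdkn1c had log2 fold changes of -0.51 and -1.93 (adjusted p = 0.0232 and 0.0108). Without siSMYD3#1 replicate 1, siCtrl replicate 3 or siSMYD3#1 replicate 2, 1 gene of the proliferation lists was raised in place of 5, and 2 were without siCtrl replicate 2 or when replicate number was a block.

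Among 70 stress genes tested, 7 were raised (10%) and 2 lowered (2.86%), against 2.91% and 2.94% of all genes. In the ER stress and amino acid response list 5 of 27 were raised and 0 lowered. The chaperone genes Hspa5 (BiP) and Pdia4 measured 856, 991 and 1064 CPM against 540, 773 and 798 CPM, and 214, 246 and 239 CPM against 135, 158 and 173 CPM. They rose by 0.48 and 0.59 (adjusted p = 0.00155 and 5.95e-05), whereas Atf4, the transcription factor of the amino acid response, had a fold change of 0.29 (adjusted p = 0.192). Hmox1, the haem oxygenase induced by oxidants, measured 39.7, 33.4 and 32.2 CPM against 55.4, 67.4 and 67.1 CPM and fell by 0.88 (adjusted p = 0.00115). Across the NRF2 and glutathione list 2 of 21 were raised and 2 lowered, and none of 23 p53 targets and apoptosis regulators passed in edgeR (3 at an unadjusted p under 0.05, 1 by DESeq2). Fits without 1 library raised 3 to 8 stress genes, with 3 when siCtrl replicate 2 or 3 was left out.

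Muscle genes were the list group with the largest share lowered. Of 105 tested, 41 were lowered (39%) and 2 raised (1.90%), against 2.94% and 2.91% of all genes. Leaving out single libraries lowered 32 to 42. The NucleoSpin libraries alone lowered 56 and the model without extraction method 18. In these bulk samples fewer differentiated cells and less RNA per cell cannot be told apart. Myog (myogenin), the transcription factor that drives terminal differentiation, measured 5.64, 19.8 and 17.2 CPM against 55.6, 222 and 262 CPM (log2 fold change -3.59, standard error 0.30, adjusted p = 5.4e-06). The factors expressed before it did not pass, with -0.41 for Myod1 and -0.36 for Myf5 (adjusted p = 0.455 and 0.0312), nor did Mef2c (0.15, adjusted p = 0.869). Mef2a, a partner of the myogenic factors, fell by 0.98 (adjusted p = 0.00144) and lost its call without siSMYD3#1 replicate 2 or 3 or siCtrl replicate 1 or 3 (0.0102 to 0.0161). Of 30 sarcomere genes 20 were lowered and 0 raised, among them the embryonic myosin gene Myh3 with -4.00 (adjusted p = 1.17e-05). The fusion proteins Mymk (myomaker) and Mymx (myomerger) fell by 3.50 and 2.38, and the calcium release channel gene Ryr1 by 3.07 (adjusted p = 2.27e-06, 6.08e-05 and 7.05e-08).

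In the list of SMYD and chromatin methylation enzymes, 1 of 37 passed (2.7%), against 5.85% of all genes. Carm1, an arginine methyltransferase, was raised by 0.41 (adjusted p = 0.00401) and lost the call in 5 of the 6 fits without 1 library, all but that without siSMYD3#1 replicate 1 (0.0122 to 0.0195). The SMYD3 relatives Smyd2 and the muscle-specific Smyd1 had log2 fold changes of 0.23 and -1.64 (adjusted p = 0.0943 and 0.0924).

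Effects at 24 h were then set beside those in confluent myoblasts at 0 h, where 226 of 15820 genes (1.43%) passed, 91 raised and 135 lowered. These comparisons share no library but come from the same series of transfections and the same model. Of the 461 genes raised at 24 h, 70 were also raised at 0 h and 438 (95%) had the same sign, with median log2 fold changes of 0.64 at 24 h and 0.31 at 0 h. Of the 465 lowered genes, 85 were lowered at 0 h and 374 (80.4%) had the same sign (medians -0.88 and -0.33). No gene called at 24 h was called in the opposite direction at 0 h. The share of all genes tested with the same sign at both times is not given here, so 95% and 80.4% have no baseline beside them. Leaving out 1 of the 6 libraries at 0 h brought the 226 genes down to between 68 (without siSMYD3#1 replicate 3) and 148 (without siSMYD3#1 replicate 1), whichever library was left out. Over all genes tested, which are not independent replicates and share the depth of their libraries, Pearson's r between the effects at both times was 0.341 and Spearman's rho 0.383.

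Several changes outside the sarcomere already passed the threshold at 0 h. F2r rose by 1.03 at 0 h (adjusted p = 6.98e-06), Ccn3 fell by 1.84 (0.000349), Pdha1 by 0.51 (0.000826) and Sema3e by 0.56 (0.00195), while Lox and Col5a1 rose by 0.81 and 0.71 (0.00174 and 0.0023). Collagens had 2 raised of 23 at 0 h and a median of 0.39. The sarcomere list had 0 of 30 past the threshold at 0 h in edgeR or DESeq2 (5 at an unadjusted p under 0.05), where 11 further members had too few counts to be tested, and a median of 0.29. Tested members could also be low at 0 h. In siCtrl Myh3 stood at 0.147 to 0.343 CPM and the sarcomere gene Mybph at 0.11 to 0.366 CPM, which left little room for a fall.

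The difference between the effects at 24 h and 0 h passed the threshold for 34 genes (0.215%), 7 with a higher and 27 with a lower effect at 24 h. Muscle genes made up part of these, 5 of the sarcomere list and 5 of the calcium list, among them Ryr1 (-3.29 on the log2 scale, adjusted p = 6.65e-05). In siCtrl at 0 h Ryr1 stood at 1.62, 1.32 and 1.65 CPM. Outside muscle, the effect on Wnt6 was higher at 24 h by 1.71 (adjusted p = 0.00194) and that on Loxl4 by 0.89 (adjusted p = 0.00699). The effects on Hey1 and Lama2 were lower at 24 h by -1.61 and -1.35 (adjusted p = 0.001 and 0.00324). Tgfb3 was raised at 0 h (log2 fold change 0.48, adjusted p = 0.0017) and not past the threshold at 24 h, and its effects differed by -0.64 (adjusted p = 0.00843). Leaving out 1 library gave 17 to 78 such genes, with 78 and 49 without the 24 h TRIzol libraries of siCtrl and siSMYD3#1, 24 without siCtrl replicate 3 or siSMYD3#1 replicate 2 at 24 h, 19 without siCtrl replicate 2 or siSMYD3#1 replicate 3 at 24 h, and 17 to 21 without any 1 library at 0 h.

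**Figure D4:**
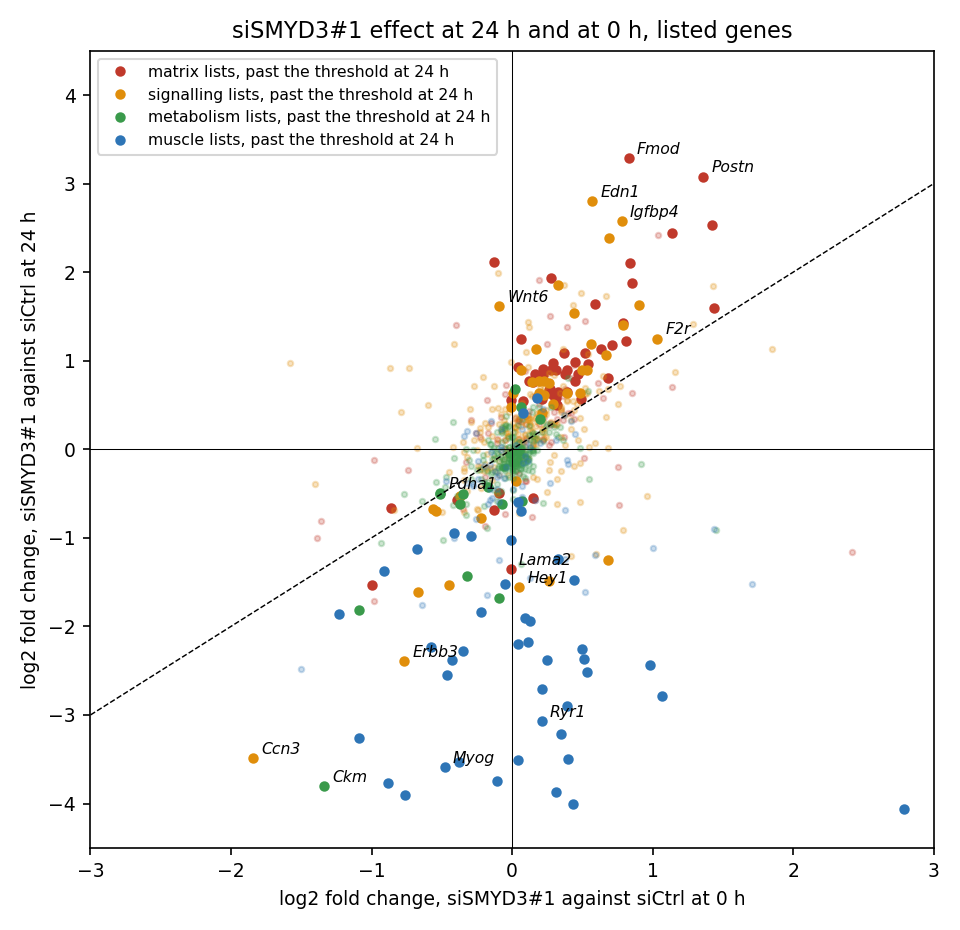
Log2 fold change of siSMYD3#1 against siCtrl at 0 h (x axis) and at 24 h (y axis) for genes of the matrix (red), signalling (orange), metabolism (green) and muscle (blue) lists. Large points passed the threshold at 24 h and pale points did not, and the dashed line marks equal effects. Matrix and signalling genes such as Postn and F2r lie to the right of 0 on both axes, whereas muscle genes such as Ryr1 (-3.07 at 24 h) lie low on the y axis and near 0 on the x axis.

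The 24 h siSMYD3#1 libraries were also compared directly with those of siSMYD3#2, an siRNA against another site of the same mRNA. Between them 532 genes passed (3.36%), 325 higher and 207 lower in siSMYD3#1. This comparison shares the siSMYD3#1 libraries with the contrast against siCtrl, so the values stand side by side and are not independent. Collagens were higher in 8 of 23 cases and lower in 0, small leucine-rich proteoglycans in 3 of 9 and 0, and TGF-beta pathway genes in 6 of 37 and 0. Wnt pathway genes were higher in 6 of 31 cases and lower in 1. Against siSMYD3#2, Edn1 was higher by 2.83 on the log2 scale (adjusted p = 4.46e-05), Igfbp4 by 2.67 (0.000704), Col1a1 by 2.00 (0.000733), Fmod by 3.19 (0.00567) and Wnt6 by 1.65 (1.77e-05). For siSMYD3#2 against siCtrl, the log2 fold changes of these genes in the same order were -0.04, -0.10, 0.10, 0.10 and -0.03 (edgeR adjusted p 0.881 to 0.972). That of Smyd3 was -1.51 (adjusted p = 5.06e-05). Other matrix genes named above also rose with siSMYD3#2 against siCtrl: Lamb3 by 1.00, Loxl4 by 0.68, Fn1 by 0.69 and Itgb1 by 0.43 (edgeR adjusted p = 0.00477, 0.000702, 0.0093 and 0.00267). Between the 2 siRNAs, Lamb3 was higher with siSMYD3#1 by 0.88 (adjusted p = 0.00909). Loxl4, Fn1 and Itgb1 differed by 0.25, 0.08 and 0.22 and did not pass (adjusted p = 0.174, 0.819 and 0.098). F2r differed by 0.00 (standard error 0.10, adjusted p = 0.991), with siSMYD3#1 against siCtrl at 1.25 and siSMYD3#2 against siCtrl at 1.24. For Ccn3 the difference was -0.47 (adjusted p = 0.362), with siSMYD3#2 against siCtrl at -3.02 (adjusted p = 1.45e-06). Myog and Ryr1 were lower with siSMYD3#1 by -1.77 and -1.07 (adjusted p = 0.00211 and 0.00349), and siSMYD3#2 against siCtrl gave -1.81 and -2.0 (0.00125 and 1.56e-05). Leaving out siSMYD3#1 replicate 2, siSMYD3#1 replicate 3, siSMYD3#2 replicate 1 or siSMYD3#2 replicate 2 reduced the 532 genes to 201, 253, 251 and 180, leaving out the TRIzol library siSMYD3#1 replicate 1 gave 872, and the model without extraction method gave 25.

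Whether genes carry a site for the seed shown above was described for 12557 tested genes with an annotated 3′ untranslated region, of which 3.59% were raised and 3.56% lowered. A site of 7 bases complementary to the siSMYD3#1 seed was present in 1355 of them, and of these 54 were raised (3.99%) and 79 lowered (5.83%). Of the 11202 genes without it, 3.54% were raised and 3.29% lowered. In 504 genes the site was followed by an A (8 bases), and 15 of these were raised (2.98%) and 37 lowered (7.34%). Their median was -0.06 on the log2 scale, against 0.01 for genes without a 7-base site. For siSMYD3#2 against siCtrl at 24 h the medians of these 2 sets of genes were -0.026 and 0.002. Genes with sites had longer 3′ untranslated regions, with a median of 2346 bases against 1074.5 without, and length was not adjusted for. Of the 399 genes with a 7-base site for the siCtrl seed, 21 were raised and 21 lowered (5.26% each). A match is a description of letters and shows no pairing in cells.

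Promoters of the called genes were read from RefSeq (GRCm38.p6), which gives 250 bases before to 50 after each start. Of 926 called genes, 675 had at least 1 window. A pair of sequences reported to bind SMYD3 (CCCTCC and GAGGGG, either strand) and the E-box core CAGCTG, which myogenic factors bind and which reads the same on both strands, were searched. CCCTCC was in 56.8% of the windows of raised genes, 53.7% of those of lowered genes, 48.4% of those of genes not past the threshold and 39.2% of all windows in the table. GAGGGG, which can overlap it on the opposite strand, was in 48.0%, 42.4%, 41.1% and 32.9%. CAGCTG was in 16.6% of the raised, 22.8% of the lowered, 15.4% of the other tested and 16.3% of all windows. One lowered and one raised gene are printed for illustration, 5′ to 3′ on the gene's strand with these 3 motifs in capitals, Ckm at chr7:19410844-19411143 (plus strand) and Fmod at chr1:134037004-134037303 (plus strand).
Ckm: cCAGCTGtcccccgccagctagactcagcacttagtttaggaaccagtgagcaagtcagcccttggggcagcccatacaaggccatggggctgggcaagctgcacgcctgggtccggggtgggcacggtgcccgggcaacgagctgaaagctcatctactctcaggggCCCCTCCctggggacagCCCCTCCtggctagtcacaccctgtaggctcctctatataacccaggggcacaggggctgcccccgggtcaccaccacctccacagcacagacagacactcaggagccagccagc
Fmod: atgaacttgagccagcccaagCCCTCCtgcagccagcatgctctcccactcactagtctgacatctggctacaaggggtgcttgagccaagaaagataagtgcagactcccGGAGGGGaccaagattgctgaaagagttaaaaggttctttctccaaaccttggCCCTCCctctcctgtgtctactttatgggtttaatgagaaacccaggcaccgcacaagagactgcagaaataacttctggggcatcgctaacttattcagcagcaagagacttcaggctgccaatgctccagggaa
The Ckm window holds 1 CAGCTG, 2 CCCTCC and 2 GAGGGG matches and the Fmod window 3 CCCTCC and 1 GAGGGG, counted on both strands. That of Myog, also lowered and not printed, holds 0 CAGCTG, 1 CCCTCC and 2 GAGGGG.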

How the data were processed

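Polyadenylated RNA was sequenced as paired-end reads from TruSeq Stranded mRNA libraries. The authors checked reads with FastQC 0.11.5, aligned them to the mouse genome with HISAT2 2.1.0 and deposited raw read counts per gene made with featureCounts (Subread 1.6.3), 1 table per library. The strand setting of the counting is not given in the sources used here, and of the 88 genes named, 3 share exon bases with a gene on the same strand and 26 with one on the opposite strand, so their reads cannot be fully assigned. Gene names, coordinates and exons came from GENCODE M21 (GRCm38), which held 54495 of the 55341 genes listed.

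Libraries were grouped by their labelled treatment and time. The 18 siRNA libraries entered 1 edgeR 4.0.16 quasi-likelihood model (R 4.3.3) with 6 groups and the labelled RNA extraction method as covariate, TMM scaling and the default filter on low counts (minimum count 10), which left 15820 genes. Contrasts were tested 2-sided with Benjamini-Hochberg adjustment, and an adjusted p-value under 0.01 is called raised or lowered. Standard errors are those of the log2 fold change, n = 3 per group. The study's methods call the replicates biological, but no source used here says whether they were separate cultures, so p-values measure the spread between these libraries. No pair of libraries held identical counts. Differences within an extraction method were taken as log2 of CPM plus 0.1. The procedure was tested on counts drawn with known changes before use. Alternatives were DESeq2 1.42.0, other size factors, filters, thresholds, libraries and covariates.

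The replicate numbers of the study's sample table were used as a block in an alternative. Deviations of same-numbered 24 h libraries from their group means correlated at 0.603, 0.502 and 0.807, and at 0.0169 within the NucleoSpin libraries alone, where the extraction method does not vary.

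Genes were named by rule: the 10 largest rises and falls past the threshold with separate groups and at least 100 counts on average, up to 4 such members of each gene list, the first 3 members of each list, and Smyd3, Smyd1, Myod1, Myf5, Myog and Mef2c. Those described are a selection from these. The comparison, the lists and this rule were chosen with earlier results of these data known. The overexpression libraries were not used here.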

Additional observations from a re-analysis of the deposited data

Results flagged for a closer look

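For 34 genes the effect of siSMYD3#1 differed between 24 h and 0 h in edgeR's test of the difference itself (adjusted p under 0.01). Among the genes named, the effect at 24 h minus that at 0 h was -3.91 on the log2 scale for Mymk (adjusted p = 0.00324), -3.57 for Casq2, the calcium buffer of the sarcoplasmic reticulum (0.0038), and -3.29 for Ryr1 (6.65e-05). For Mylpf, a fast muscle myosin light chain gene, it was -3.15 (0.00699), and for Atp2a1, the calcium pump of the sarcoplasmic reticulum, -2.63 (0.000777). These muscle genes stood between 0.402 (Mymk) and 3.09 CPM (Atp2a1) in siCtrl at 0 h, low levels that limit how far a fall could be seen at that time. Outside muscle it was -1.61 for Hey1 (0.001), -1.35 for Lama2 (0.00324), -0.64 for Tgfb3 (0.00843), 0.89 for Loxl4 (0.00699) and 1.71 for Wnt6 (0.00194). Groups of 3 libraries are too small for a search for single outlying values.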

How the results depend on the processing

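The 24 h count of 926 genes became 1778 at an adjusted p under 0.05, 301 with at least a doubling or halving, 1496 without the low-count filter, 102 without the extraction method, 1772 in the NucleoSpin libraries alone, and 474 to 1043 with 1 library left out. At 0 h, 226 became 561, 35, 527, 15 and 462 in the same order, 528 with DESeq2, 992 when only the groups compared were fitted, and 68 to 148 with 1 library left out. The 34 genes whose effects differed between times became 105 at an adjusted p under 0.05, 277 without the filter, 2 without the extraction method, 160 in the NucleoSpin libraries, 141 with DESeq2 and 17 to 78 with 1 library left out. The 532 genes between siSMYD3#1 and siSMYD3#2 became 1349, 131, 1092, 25 and 1486 in the order of the 24 h counts, 1021 with DESeq2, and 180 to 872 with 1 library left out. The causes of these shifts were not tested. When replicate number was a block, the counts in this order of comparisons were 831, 190, 27 and 446, and 825 of the 831 genes were among the 926. The block ended the calls of Inhba and Slc2a3 and of no other gene named. Fitting only the groups compared ended the 24 h calls of Igfbp4, Prelp, Ace, Itgb8 and Elovl6 (adjusted p 0.0132 to 0.0294). DESeq2 called 1344 genes at 24 h, of which 923 were among the 926. Without the extraction method 49 of the named genes lost their call. Of 67 genes named as past the threshold at 24 h, 56 passed in every fit without 1 library. Smyd3 passed in no alternative. Mef2c, not past the threshold, changed sign without siSMYD3#1 replicate 2 (-0.06) or replicate 3 (-0.04), and ranged from -0.06 to 0.55 over the fits without 1 library.

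Each group held 3 libraries, of which 1 differed in extraction, and calls near the threshold changed with single libraries. Depth limits genes of a few CPM, such as Slc2a3. Because Smyd3 mRNA was not shown to fall, no difference can be tied to its loss from these libraries alone.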
